A study of Homo sapiens with 12 samples.

Results

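The comparison described here sets RKO cells that overexpress the alpha form of PRDM1 against RKO cells that overexpress its beta form. It rests on 4 of the 12 libraries of the series, the 2 titled for alpha and the 2 titled for beta, and covers the 12858 of 26364 counted genes with enough counts to be tested. RKO is an established human colon carcinoma line. The series also holds 2 libraries each of wild-type RKO cells, of the CRISPR/Cas9 PRDM1 knockout derivatives KO2 and KO5, and of a derivative overexpressing GFP, and the GFP libraries serve here as the reference level. All of these cells are RKO derivatives with no added treatment in the labels. The alpha, beta and GFP derivatives carry an overexpressed gene on top of the line's own PRDM1, which is not labelled as deleted in them. The vector, its promoter, the exact insert, the time since its introduction and whether a derivative is 1 clone or a pool are not given in the sources used here. Polyadenylated RNA was sequenced, and no label states that paired libraries are separate cultures, so every p-value below measures only the spread between these libraries, which may be technical.

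PRDM1, also called BLIMP1, is a transcriptional repressor best known for driving B cells to become plasma cells, and it also acts in T cells and in the developing gut epithelium. The alpha form is the full-length protein, with a PR domain near its start, followed by a proline-rich stretch and the zinc fingers that bind DNA. The beta form starts from an internal promoter, lacks the first part of the protein including part of the PR domain, and keeps the zinc fingers. It is described as a weaker repressor in lymphoid and myeloma cells.

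The sequence around the point where both forms join is shown because their coding sequences differ only before it. For alpha, only the last 24 of its own coding bases are shown. Capitals mark coding bases that belong to only 1 form and lower case marks the first bases they share, each read 5′ to 3′ from the GENCODE v29 transcripts of PRDM1 on chromosome 6.
PRDM1 alpha: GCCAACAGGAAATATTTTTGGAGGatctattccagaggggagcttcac
PRDM1 beta: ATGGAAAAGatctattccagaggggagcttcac
The alpha coding sequence has 2478 bases for 825 residues, and the beta coding sequence has 2076 bases for 691 residues. They share 2067 coding bases, and alpha has 411 of its own and beta 9, so the beta protein is 134 residues shorter. Counts per gene pool both forms, and nothing in them shows which form a library expressed.

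PRDM1 transcript was far more abundant in both overexpressing derivatives than in any other group, and more abundant with beta than with alpha. PRDM1 had 11475 and 9681 counts in the alpha libraries and 22395 and 28423 in the beta libraries, or 487 and 480.1 counts per 1000000 gene counts (CPM) with alpha and 1175 and 1176 CPM with beta. The GFP libraries had 2 and 6 counts, the wild-type libraries 4 and 4, and the knockout libraries at most 1 each. The libraries of the alpha and beta groups lie close to each other within each group and do not overlap between groups. The ratio of beta to alpha was 2.43, with an exact 95% binomial interval of 2.39 to 2.47 that covers counting error only. Per base of coding sequence, since the beta form is shorter, the ratio was 2.90 (2.85 to 2.95), if the inserts hold the coding sequence alone. Form and transcript dose therefore differ together in these 4 libraries, and their parts in every difference below cannot be told apart. Protein was not measured.

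**Figure D1:**
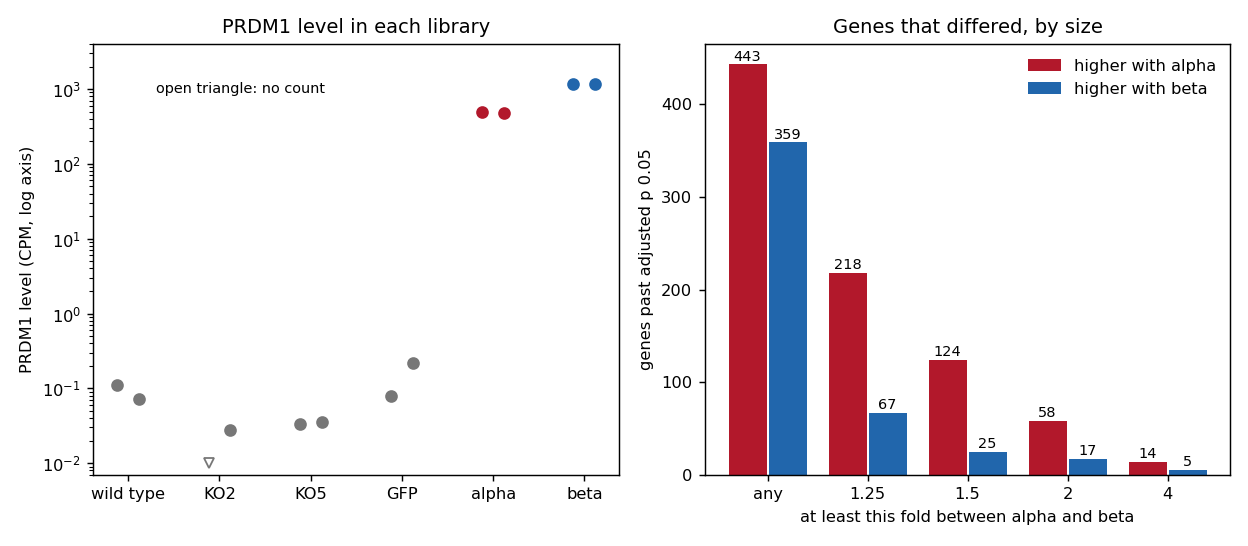
Left, PRDM1 level in CPM on a log axis for each of the 12 libraries by group, with 1 point per library; the beta libraries sit at 1175 and 1176 CPM, the alpha libraries at 487 and 480 CPM and all others below 0.22 CPM. Right, number of genes past an adjusted p of 0.05 between alpha and beta, at any size and at 1.25, 1.5, 2 and 4-fold or more; bars for genes higher with alpha exceed those for genes higher with beta at each size.

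The 4 libraries held 19058967 to 24170122 gene counts each, and 3 counts, taken as the floor, equal 0.124 to 0.157 CPM. Both libraries of a pair differed by more than counting noise (chi-square per degree of freedom 1.73 for alpha and 1.68 for beta, below the 1.95 to 2.77 of the other 4 pairs), so each was kept as a separate library. The labelled colon epithelial origin was checked against its markers. KRT8 and KRT18 were abundant and CDX2 lay between 14.7 and 17.5 CPM in the 4 libraries, whereas CDH1, EPCAM, VIL1 and KRT19 had at most 1 count in any of them. The 7 epithelial markers summed to 823 and 819 CPM with alpha and to 929 and 930 CPM with beta, and 11 leukocyte markers to at most 0.806 CPM in any alpha, beta or GFP library.

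Bulk RNA cannot tell a lower share of cells expressing a gene from less of its RNA per cell. Across all tested genes, 802 (6.24%) differed between alpha and beta at an adjusted p under 0.05 (edgeR quasi-likelihood test, Benjamini-Hochberg adjustment over all tested genes). Of these, 443 (3.45%) stood higher with alpha and 359 (2.79%) with beta. Against GFP the same test passed 37.5% of genes with alpha and 40.9% with beta; both comparisons share the GFP libraries, so their values are only set side by side. The differences higher with alpha were larger, with a median of 0.318 on the log2 scale against 0.189 in absolute size for those higher with beta. At 1.5-fold or more, 124 genes were higher with alpha and 25 with beta, counting PRDM1 itself, and at 4-fold or more 14 and 5. Genes higher with beta were more abundant, with a median level over the 4 libraries of 76.1 CPM, against 41.6 CPM for those higher with alpha and 32.4 CPM for all tested genes.

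The calls rest on 2 libraries a group. Whether counting used strand is not given in the sources used here. Without it, reads cannot be told apart where exons of genes on opposite strands overlap. Examples are NPC2 and ISCA2, KRT8 and KRT18, MMP1 and MMP3 with WTAPP1, and STAT6 with NAB2 and LRP1. Others are PSMB9 with PSMB8, and ID2 and FOXD1 with their antisense genes. Of the 100 named genes 99 were found in GENCODE v29, and 38 of these have such a partner there. Leaving out each of the 4 libraries in turn gave totals of 395 to 495, and 185 of the 443 genes higher with alpha and 69 of the 359 higher with beta passed in all 4 of those fits. Of the genes at least 1.5-fold apart, 91 of 124 higher with alpha and 9 of 25 higher with beta did so. The DESeq2 Wald test called 273 genes higher with alpha and 151 higher with beta, and a test for differences beyond 1.5-fold called 53 and 6. The share of calls higher with alpha was 55.2% in the first test, 64.4% with DESeq2 and 89.8% beyond 1.5-fold.

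**Figure D2:**
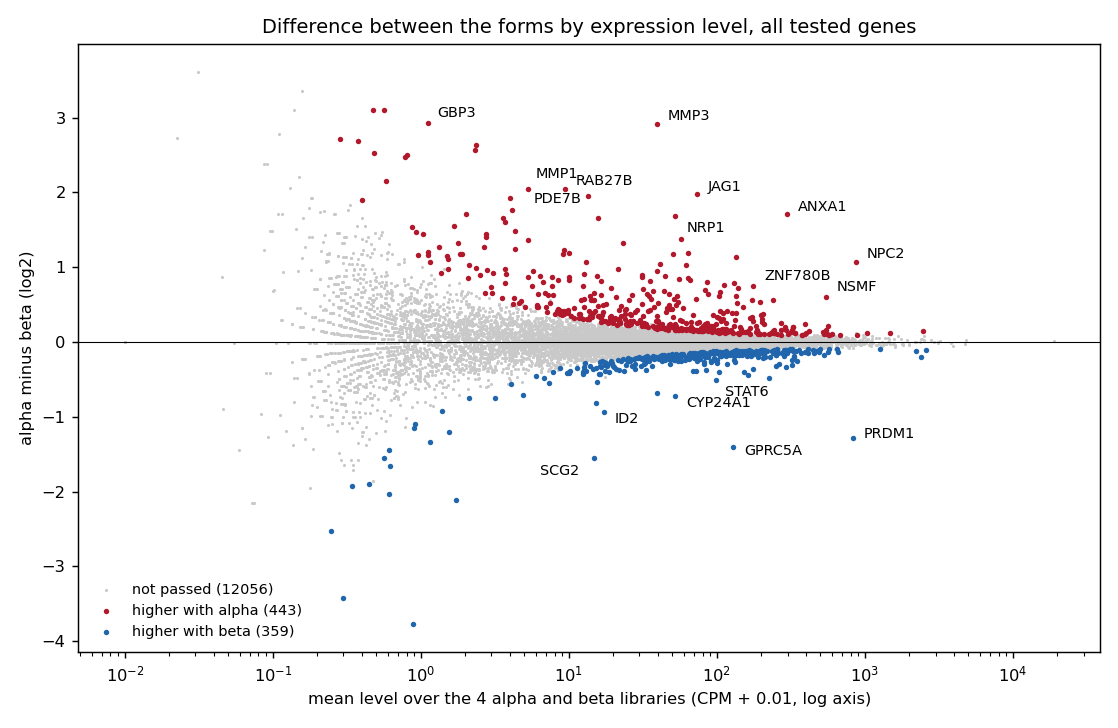
Alpha minus beta on the log2 scale against the mean level over the 4 alpha and beta libraries (CPM plus 0.01, log axis) for the 12858 tested genes, with genes past an adjusted p of 0.05 in colour. MMP3, JAG1, ANXA1 and NPC2 stand out above the line and PRDM1, GPRC5A and SCG2 below it.

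The differences are described first for genes that fell with both forms relative to GFP and stood higher with alpha, where the fall was smaller. JAG1, a ligand of Notch receptors, had 323 and 337 CPM in the GFP libraries, 117 and 117 CPM with alpha and 30.6 and 29.04 CPM with beta. The groups form 3 separate levels with no overlap. Alpha minus beta was 1.97 ± 0.054 (log2 ± SE, adjusted p = 3.83e-35), from -1.49 ± 0.038 with alpha and -3.46 ± 0.052 with beta against GFP. ANXA1, a calcium-dependent phospholipid-binding protein that restrains inflammation, had 1007 and 1052 CPM in GFP cells, 456 and 458 with alpha and 139.7 and 140.1 with beta. Its difference of 1.71 ± 0.037 had the smallest adjusted p of all tested genes (1.76e-37) and was 1.71 in each fit that left out 1 of the 4 libraries. PDE7B, a phosphodiesterase that breaks down cyclic AMP, went from 118 and 121 CPM with GFP to 24.4 and 23.7 with alpha and 7.66 and 7.53 with beta, a difference of 1.66 ± 0.10 between the forms.

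Other genes showed the same order of levels, with GFP highest and beta lowest. ADAMTSL1, a secreted matrix glycoprotein, had 45.6 and 44.5 CPM in GFP cells, 6.87 and 5.85 with alpha and 1.63 and 1.74 with beta. For NAV3, a microtubule-binding protein, 31.5 and 28.2 CPM with GFP became 21.5 and 21.1 with alpha and 5.04 and 5.83 with beta, a fall of -0.48 with alpha and of -2.43 with beta against GFP. PCLO, a scaffold of presynaptic terminals, differed by 1.60 ± 0.20 between the forms. MYOF, a ferlin of membrane repair, and TNS4, a focal adhesion protein, are named here after their values were seen. MYOF had 314 and 316 CPM in GFP cells, 82.2 and 83.4 with alpha and 32.3 and 31.6 with beta, and TNS4 differed by 1.33 ± 0.077 between the forms. For each of these genes the larger fall went with the form that also had more PRDM1 transcript.

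A second group rose with both forms and rose further with alpha, the form with less PRDM1 transcript. MMP3, a stromelysin that degrades matrix proteins, was near the floor with GFP at 0.118 and 0.145 CPM, reached 68.3 and 69.9 CPM with alpha and stood at 9.81 and 8.56 CPM with beta. Its alpha minus beta of 2.92 ± 0.10 (adjusted p = 2.97e-28) was the largest among genes that reached 5 CPM with either form. The interstitial collagenase MMP1 had 8.91 and 8.18 CPM with alpha and 2.36 and 1.82 with beta, against at most 0.118 CPM with GFP, a difference of 2.05 ± 0.19. NRP1, a coreceptor for semaphorins and vascular growth factors, had 3.58 and 3.93 CPM in GFP cells, 80.04 and 80.04 with alpha and 25.1 and 24.7 with beta. The rise of NRP1 against GFP was 4.42 ± 0.11 with alpha and 2.73 ± 0.12 with beta, and the forms differed by 1.68 ± 0.063.

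RAB27B, a GTPase of vesicle docking and secretion, had 15.02 and 15.4 CPM with alpha, 3.04 and 4.18 with beta and 0.551 and 0.763 with GFP, a difference of 2.05 ± 0.15 between the forms. PADI1, which converts arginine to citrulline in proteins, differed by 1.76 ± 0.20. SNAI2, a zinc finger repressor of epithelial genes, had 5.98 and 4.96 CPM with alpha and 1.42 and 1.99 with beta, a difference of 1.66 ± 0.21. These 3 genes passed in every fit that left out 1 library, as did the other 9 of the 12 largest differences higher with alpha. Among abundant genes of this kind were NSMF, which carries signals from synapses to the nucleus, at 634 and 686 CPM with alpha and 424 and 442 with beta. CPA4, a carboxypeptidase, and RGS2, which shortens signalling by G proteins, were picked after their values were seen and differed by 1.14 ± 0.045 and 1.18 ± 0.061. CPA4 had 1.495 and 1.05 CPM in GFP cells, 188 and 182 with alpha and 86.2 and 81.8 with beta.

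**Figure D3:**
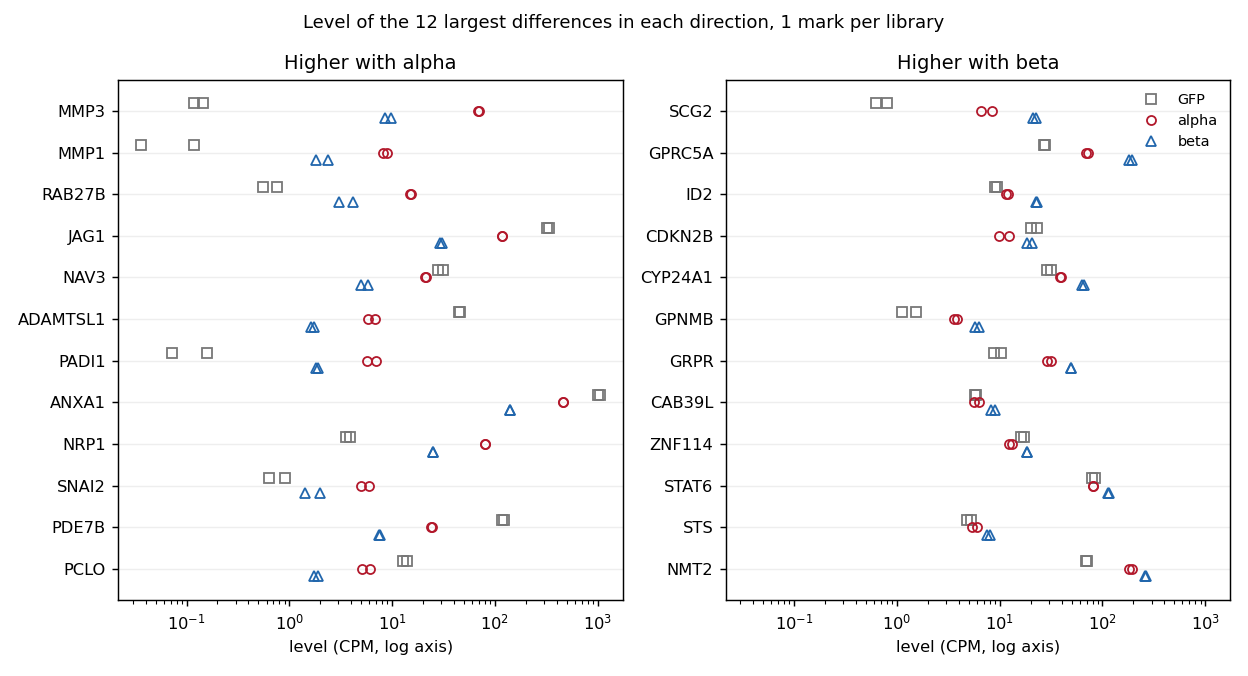
Level in CPM on a log axis of the 12 largest differences in each direction in the 2 GFP (squares), 2 alpha (circles) and 2 beta (triangles) libraries, 1 mark per library. On the left alpha lies above beta for MMP3 to PCLO, with GFP above both for 6 of the genes and below both for the other 6; on the right beta lies above alpha for SCG2 to NMT2.

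NPC2 changed with alpha and stayed near the GFP level with beta. This lysosomal protein, which hands cholesterol out of late endosomes, had 545 and 560.5 CPM with GFP, 554 and 565 with beta and 1163 and 1189 with alpha. The alpha libraries stand apart and the GFP and beta libraries overlap. Alpha minus beta was 1.07 ± 0.033 (adjusted p = 1.95e-31), from 1.10 ± 0.032 with alpha against GFP and 0.026 ± 0.033 with beta (adjusted p = 0.533). It was the most abundant of the genes at least 1.5-fold apart. GFPT2, an enzyme of the hexosamine pathway, showed the converse at a lower level and was picked after its values were seen, with 3.07 and 3.64 CPM in GFP cells, 3.82 and 4.26 with alpha and 0.577 and 0.703 with beta. Its alpha minus beta was 2.63 ± 0.30, and it fell with beta (-2.36 ± 0.30) without passing with alpha (0.27 ± 0.16, adjusted p = 0.202).

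Fewer genes were clearly higher with beta. GPRC5A, an orphan receptor first found as induced by retinoic acid, had 27.9 and 27.3 CPM in GFP cells, 72.4 and 68.8 with alpha and 194 and 182 with beta. The groups do not overlap, and alpha minus beta was -1.41 ± 0.044 (adjusted p = 5.59e-30). SCG2, a granin of secretory granules, had 0.630 and 0.800 CPM in GFP cells, 6.58 and 8.48 with alpha and 21.3 and 22.6 with beta, a difference of -1.56 ± 0.11. ID2, an inhibitor of helix-loop-helix factors, had 274 and 242 counts with alpha and 435 and 543 with beta, a difference of -0.94 ± 0.093. The vitamin D-degrading enzyme CYP24A1 differed by -0.72 ± 0.059, the gastrin-releasing peptide receptor GRPR by -0.69 ± 0.065 and the myristoyltransferase NMT2 by -0.48 ± 0.036. All 6 rose with both forms against GFP and further with beta.

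STAT6 and CDKN2B did not pass against GFP with 1 of the forms. STAT6, the transcription factor of interleukin 4 signalling, had 78.3 and 84.04 CPM in GFP cells, 80.4 and 81.7 with alpha and 113 and 117 with beta, so that its difference of -0.51 ± 0.044 came with a rise with beta and no pass with alpha (0.51 ± 0.043; 0.0034 ± 0.045 with alpha, adjusted p = 0.963). CDKN2B, an inhibitor of the cyclin D kinases, had 20.2 and 22.8 CPM in GFP cells, 12.3 and 9.77 with alpha and 18.5 and 20.6 with beta, so that its difference of -0.82 ± 0.10 came with a fall with alpha (-0.95 ± 0.095) and no pass with beta (-0.12 ± 0.083, adjusted p = 0.238). The zinc finger gene ZNF114 likewise fell with alpha (-0.39 ± 0.087) and differed by -0.54 ± 0.089 between the forms. The calls on the melanocyte and macrophage glycoprotein GPNMB (-0.71 ± 0.16), the kinase scaffold CAB39L (-0.54 ± 0.13) and the steroid sulfatase STS (-0.49 ± 0.13) were lost without beta replicate 2, and the last 2 also without alpha replicate 1. Their adjusted p then reached 0.0938, 0.116 and 0.169.

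Some larger beta differences lay among genes near the floor. PPARG, a nuclear receptor of lipid metabolism, was picked after its values were seen, with 1 and 4 counts with alpha, 33 and 37 with beta and 0 in both GFP libraries. The pregnancy-specific glycoprotein genes PSG3, PSG4, PSG8 and PSG9 lie side by side and were all called higher with beta, PSG3 at 0.552 and 0.744 CPM with alpha and 2.62 and 2.94 with beta. They are near-identical copies, so reads may be split among them. PSG3 passed in each fit that left out a library, PSG4 and PSG9 in none of the 4, and PSG8 without beta replicate 1 alone, with adjusted p up to 0.206, 0.214 and 0.338.

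Other genes changed several-fold against GFP with both forms and by like amounts. They were taken as genes at least 2-fold from GFP with each form whose 95% interval of alpha minus beta lay within 1.2-fold. TGM2, a transglutaminase that crosslinks proteins, had 8.34 and 6.83 CPM in GFP cells, 93.4 and 85.1 with alpha and 97.2 and 95.99 with beta, and its difference of -0.11 had an interval of -0.21 to -0.018. The forkhead factor FOXD1 rose by 1.90 with alpha and 1.95 with beta, with an interval of -0.15 to 0.052 for their difference. COL13A1, a transmembrane collagen, and AGPAT9, an acyltransferase of triglyceride synthesis, had intervals of -0.24 to 0.11 and -0.21 to -0.047. Among falls, IVNS1ABP, a kelch protein, had 481 and 507 CPM in GFP cells, 192 and 186 with alpha and 189 and 202 with beta, and an interval of -0.12 to 0.025. ID3, a relative of ID2, fell with both forms and had an interval of -0.072 to 0.16, as did MECOM, a PR domain relative of PRDM1 (-0.25 to 0.16), and LYPD6, a membrane-anchored modulator (-0.10 to 0.17).

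Calls were uneven in the class of zinc finger genes on chromosome 19, most of which encode KRAB zinc finger repressors of transposable elements. The class was singled out after values were seen, so it is described with no test. By their symbols, 209 zinc finger genes of chromosome 19 were tested, and 59 (28.2%) stood higher with alpha and 1 (0.478%), ZNF114, with beta. The other 705 tested genes of the chromosome had 19 (2.7%) and 15 (2.13%), and 252 zinc finger genes on other chromosomes 11 and 6. The median alpha minus beta was 0.10 for the class, 0.0065 for the other genes of the chromosome and -0.0014 for all tested genes. Against GFP, 70 of the 209 rose and 25 fell with alpha, and 47 rose and 34 fell with beta. Of the other 705 genes of the chromosome, 225 rose and 50 fell with alpha, and 235 rose and 73 fell with beta. Of all 12858 tested genes, 2729 rose and 2095 fell with alpha, and 2945 rose and 2316 fell with beta. Leaving out a library left 46 to 51 genes of the class higher with alpha, and 42 of the 59 passed in all 4 of those fits.

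These calls clustered along the chromosome. Joining called zinc finger genes with at most 3 tested genes between neighbours gave 4 stretches with 5 or more calls, and since calls define the stretches their counts are descriptions only. From ZNF565 to ZNF573, 23 of 30 tested zinc finger genes were higher with alpha, with a median of 0.57; their median against GFP was 0.92 with alpha and 0.45 with beta. From ZNF283 to ZNF180, 12 of 18 were higher with alpha and the median was 0.48. All 6 from ZNF582 to ZNF71 were called, with a median of 0.97, from 1.19 with alpha and 0.25 with beta against GFP. From ZNF714 to ZNF100, 6 of 7 were called. Other genes within the stretches were also called higher with alpha. They were 2 of 3 from ZNF565 to ZNF573 (LINC00665, 0.93, and LINC01534, 0.35) and LINC00664 (0.62) from ZNF714 to ZNF100. Reads of closely related zinc finger genes may be assigned to one another, as for ZNF585A and ZNF585B or ZNF780A and ZNF780B, and such values are uncertain.

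**Figure D4:**
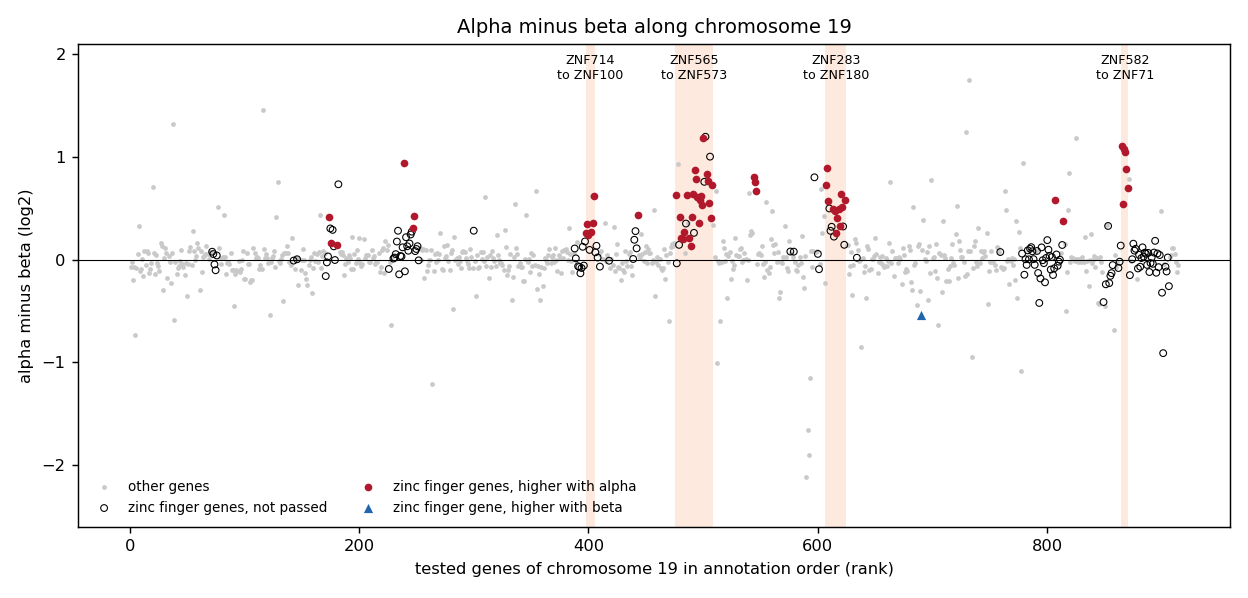
Alpha minus beta on the log2 scale for the tested genes of chromosome 19 in annotation order, with zinc finger genes outlined or filled and the 4 stretches shaded. Within the shaded stretches nearly all zinc finger genes lie above the line, 23 of 30 passing from ZNF565 to ZNF573. Other genes scatter around 0 outside the stretches and lie above the line within them. The lowest points are PSG genes.

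Single members show how the levels ran. ZNF420 had 59.2 and 60.6 CPM in GFP cells, 164 and 166 with alpha and 95.9 and 95.6 with beta, a difference of 0.79 ± 0.042. ZNF283 and HKR1, both among the most abundant genes at least 1.5-fold apart, had 177 and 171 and 163 and 165 CPM with alpha and 102 and 108 and 106 and 107 with beta. In these 3 genes both forms raised the level over GFP and alpha raised it further. ZFP28 and ZNF540 were at the GFP level with beta, ZFP28 at 27.7 and 25.7 CPM with GFP, 26.1 and 28.1 with beta and 55.6 and 56.5 with alpha. ZNF540 had 40.4 and 40.2 CPM with GFP, 40.1 and 39.9 with beta and 71.3 and 71.6 with alpha. The most abundant member, ZNF780B, had 68.5 and 60.8 CPM in GFP cells, 229 and 213 with alpha and 132 and 131 with beta. A few zinc finger genes elsewhere fell with both forms and further with beta, such as ZNF271P on chromosome 18 at 392 and 400.1 CPM in GFP cells, 111 and 107 with alpha and 62.2 and 62.9 with beta. Apart from ZNF780B, HKR1 and ZNF283, the members in this paragraph were picked after their values were seen.

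Runs of called neighbours were also seen outside this class. Of the 431 genes higher with alpha that have a position in the annotation, 131 (30.4%) had a neighbour among the tested genes called in the same direction, and 60 of these were zinc finger genes. For the 349 higher with beta the number was 56 (16%). Of all tested genes 3.45% were called higher with alpha and 2.79% higher with beta. How often any tested gene has such a neighbour was not counted, so the shares with a called neighbour are descriptions only. On chromosome 18 a run of 4 genes higher with alpha held MAPRE2, ZNF397, ZSCAN30 and ZNF271P. Of the 166 tested genes of that chromosome 15 (9.04%) were higher with alpha, beside 78 of 914 (8.53%) on chromosome 19. On chromosome 14 NPC2 was followed by the iron-sulphur assembly gene ISCA2 (0.43 ± 0.056), and on chromosome 7 the caveolin gene CAV1 (0.85 ± 0.05) stood beside CAV2 and the growth factor receptor gene MET, whose own calls were lost without alpha replicate 1 and in at least 1 other such fit (without alpha replicate 2 or beta replicate 2 for CAV2, without beta replicate 1 for MET), with adjusted p up to 0.289 and 0.390. On chromosome 6 the peptidase gene PREP, the autophagy gene ATG5 and PRDM1 are consecutive tested genes that were all higher with beta. PREP had 123 and 119 CPM with alpha and 142 and 147 with beta, a difference of -0.26 ± 0.04. ATG5, whose span overlaps that of PRDM1 on the opposite strand in the annotation, differed by -0.17 ± 0.05 and passed without beta replicate 2 but not without any other of the 4 libraries (adjusted p up to 0.239). On chromosome 20 CYP24A1 lay beside ZNF217, which differed by -0.45 ± 0.038.

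Among 29 gene lists, those of interferon response and antigen presentation held more called genes higher with alpha than with beta, and most members did not pass. These genes are part of innate immunity, and PRDM1 is known to bind motifs that resemble interferon response elements. Of 27 tested interferon-stimulated genes, 4 were higher with alpha and 1 with beta, and of 21 antigen presentation genes 5 and 0. Of all tested genes 3.45% and 2.79% were. At an unadjusted p under 0.05 the interferon list gave 8 and 2 and the antigen presentation list 9 and 1. All 12858 tested genes gave 1219 and 1168 at that threshold. DESeq2 called 5 members of each list, and 4 to 5 passed in fits that left out 1 library. The medians were 0.079 and 0.067 beside -0.0014 for all tested genes. The aminopeptidase ERAP2, which trims peptides for class I molecules, had 43.4 and 43.7 CPM in GFP cells, 13.4 and 12.4 with alpha and 5.77 and 5.34 with beta, a difference of 1.23 ± 0.12 (adjusted p = 6.26e-13). TAPBP, which loads those peptides, had 62.1 and 58.3 CPM in GFP cells, 30.2 and 30.6 with alpha and 20.3 and 20.98 with beta. The proteasome activator PSME1 differed by 0.50 ± 0.053 and the antiviral synthetase OAS3 by 0.28 ± 0.053.

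In each of these genes GFP was highest and beta lowest. GBP3, a guanylate-binding protein, had 228 and 273 counts in GFP cells, 46 and 40 with alpha and 4 and 7 with beta, a difference of 2.93 ± 0.47. TLR3, the receptor for double-stranded RNA, had 193 and 230 counts in GFP cells, 31 and 14 with alpha and 0 and 5 with beta; its fitted difference of 3.11 ± 0.74 rests on the 5 counts of beta replicate 2, without which beta is at 0. The calls on the immunoproteasome subunit PSMB9 (1.16 ± 0.33) and the protease USP18 (0.50 ± 0.13) were lost without replicate 2 of either form. That on USP18 was also lost without alpha replicate 1. In fits that left out 1 library the difference ranged from 0.93 to 1.38 for PSMB9 and from 0.32 to 0.65 for USP18.

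A PRDM1-like motif stood in the promoters of 11 of the 100 named genes, and in 9.19% of tested genes with a promoter. Of the 11, 8 were higher with alpha and 2, STS and ZEB1, higher with beta. Most named genes were chosen for their calls, so this split is a description only. In these immune lists the genes with the motif were ERAP2, TAPBP, TLR3 and PSME1. The first 3 are shown as examples picked after their values were seen. Windows of 30 bases from RefSeq promoters (GRCh38.p14, 250 bases before to 50 after the start) are given 5′ to 3′ on the gene's strand, with every match to AGNGAAAG or its reverse complement in capitals. The capitals of TAPBP hold 2 overlapping matches.
ERAP2, chr5:96876462-96876491, plus strand: ttagaacagaaAGTGAAAGcaaaagtaaat
TAPBP, chr6:33314077-33314106, minus strand: ctttggaggaaAGTGAAAGTGAAAGgagga
TLR3, chr4:186069140-186069169, plus strand: ttcaagctttaCTTTCACTttcgagagtgc
Searched on both strands, AGNGAAAG stood in 9.19% of the 10165 tested genes with a promoter, in 10.6% of those higher with alpha and in 11% of those higher with beta. Of genes at least 1.5-fold apart it stood in 15 of 100 higher with alpha and in 2 of 18 higher with beta. Of chromosome 19 zinc finger genes with a promoter it stood in 5.56% of those higher with alpha and in 7.78% of all tested. The shorter GAAAGT, which can overlap it, stood in 13.7% of all, 15% of those higher with alpha and 14.1% of those higher with beta. A match is a description of these letters and not a binding site.

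Matrix and adhesion genes were higher with alpha where they differed most. The counts stand beside 3.45% higher with alpha and 2.79% higher with beta among all tested genes. Of 12 tested metalloproteinase, ADAMTS and TIMP genes, MMP3, MMP1 and ADAMTSL1 were higher with alpha and the other 9 did not pass, with no further gene at an unadjusted p under 0.05. Of 22 integrin, collagen and laminin genes 4 stood higher with alpha and 2 with beta, and 3 to 4 passed in fits that left out a library. LAMB3, a chain of the basement membrane laminin of epithelia, had 3.23 and 2.76 CPM in GFP cells, 54.2 and 49.1 with alpha and 28.7 and 25.2 with beta, a difference of 0.95 ± 0.067, and the laminin chain LAMA1 differed by 0.82 ± 0.10. Of 14 plasminogen and serpin genes 2 were higher with alpha and 1 with beta. The clade B serpin SERPINB7 had 19.6 and 20.5 CPM with alpha, 10.9 and 10.8 with beta and at most 0.109 with GFP, and the urokinase receptor PLAUR 44.5 and 46.2 with alpha, 29.02 and 27.4 with beta and 24.6 and 23.6 with GFP.

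Of 16 regulated secretion genes 3 were higher with alpha and 1 with beta, against 3.45% and 2.79% of all tested genes. RAB27B and the synaptotagmin-like effector SYTL3 (0.62 ± 0.10) stood higher with alpha and SCG2 higher with beta, so that the list held large differences of both signs around a median of -0.056. Of 27 Notch pathway genes JAG1 alone passed. Of 10 tested mesenchymal genes 3 were higher with alpha and 1 with beta, and SNAI2 alone passed in all 4 fits that left out a library. The adjusted p of COL1A1 and ZEB1 reached 0.401 and 0.637 without either alpha replicate or beta replicate 2, and that of TAGLN 0.325 without alpha replicate 1 or either beta replicate. Of 13 tested epithelial genes, the keratins KRT8 (-0.18 ± 0.033) and KRT18 (-0.18 ± 0.035) were higher with beta. Exons of these genes overlap on opposite strands in the annotation, so their values may not be separate. KRT7, a keratin of simple ducts, was called higher with alpha (0.65 ± 0.14) and lost that call without alpha replicate 2 or beta replicate 2 (adjusted p up to 0.139).

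Growth and stress lists are given by their counts, beside 3.45% higher with alpha and 2.79% higher with beta among all tested genes. At an unadjusted p under 0.05, all 12858 tested genes gave 1219 and 1168. The called share was near the 6.24% of all tested genes for the cholesterol (8.33%), G2/M (7.69%), hypoxia (7.41%) and Wnt (6.67%) lists. It was 37.5% for TGF-beta and BMP targets. Of 24 tested TGF-beta and BMP target genes 3 were higher with alpha and 6 with beta, and among these ID2 and CDKN2B were furthest apart on the beta side and LTBP2, a latent TGF-beta binding protein, on the alpha side (1.44 ± 0.39, adjusted p up to 0.153 without either alpha replicate or beta replicate 1). DESeq2 called 7, 4 to 7 members passed in fits that left out a library, and the stress cytokine GDF15 (-0.39 ± 0.085) lost its call without beta replicate 2 (adjusted p = 0.199). Of 24 p53 target genes 5 were higher with beta, the ribonucleotide reductase subunit RRM2B by -0.25 ± 0.04, and 0 with alpha (5 and 2 at an unadjusted p under 0.05). The list's median was -0.027, DESeq2 called 3 members, and 1 to 3 passed in fits that left out a library. Of 26 genes of the unfolded protein response 5 passed on the alpha side and 0 on the beta side, with a median of 0.06 and 23 of 26 members on the alpha side. At an unadjusted p under 0.05 they were 9 and 0, DESeq2 called 4, and 1 to 3 passed in fits that left out a library. CRELD2, a chaperone of the endoplasmic reticulum, led them by 0.35 ± 0.066 and passed in each of those fits. Of 24 cholesterol synthesis genes 2 were higher with alpha, led by the synthase HMGCS1 (0.27 ± 0.037). Of 22 tested amino acid stress genes of the ATF4 pathway 0 passed with edgeR or with DESeq2, and 4 had an unadjusted p under 0.05. Of 41 G1/S genes and 52 G2/M genes, 3 each were higher with alpha and 1 each with beta, all within 1.2-fold. The other lists gave, for alpha and beta in turn, 2 and 4 of 23 cyclin and kinase inhibitor genes, 1 and 3 of 22 AP-1 and immediate early genes, 2 and 1 of 20 ERK feedback genes, 2 and 0 of 27 hypoxia genes, 1 and 1 of 15 NF-kB targets, 0 and 1 of 15 Wnt targets, 0 and 1 of 6 EGF family genes and 1 and 0 of 3 fibroblast markers. At most 2 members of any of these passed in a fit that left out a library.

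Genes that work with PRDM1 or are related to it had few calls in number, from short lists. The called shares were 18.8% of partner genes, 10% of PRDM family genes, 14.3% of lymphocyte targets and 33.3% of plasma cell markers. Of all tested genes 6.24% were called, 3.45% higher with alpha and 2.79% higher with beta. Of 16 corepressor and chromatin partner genes 3 were called higher with beta, the corepressor TLE4, the demethylase KDM4A and the Polycomb subunit SUZ12. TLE4 and KDM4A lost the call whichever of the 4 libraries was left out, and SUZ12 without alpha replicate 2 or either beta replicate. In those fits alpha minus beta ranged from -0.34 to -0.21 for TLE4, -0.15 to -0.10 for KDM4A and -0.16 to -0.086 for SUZ12. DESeq2 called 0 members of this list. Of 10 tested PRDM family genes besides PRDM1, only PRDM16 passed, with 30.4 and 28.2 CPM in GFP cells, 18.1 and 18.4 with alpha and 24.1 and 22.8 with beta, a difference of -0.36 ± 0.076. Of 7 tested genes that PRDM1 represses in lymphocytes, MYC alone was called, higher with beta by -0.12, a call lost whichever of the 4 libraries was left out (adjusted p up to 0.115). Of 6 tested plasma cell markers, the surface receptor SLAMF7 was called higher with alpha and the proteoglycan SDC1 higher with beta (-0.16 ± 0.042), the first lost whichever of the 4 libraries was left out and the second without alpha replicate 1 or beta replicate 2 (adjusted p up to 0.207 and 0.201).

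**Figure D5:**
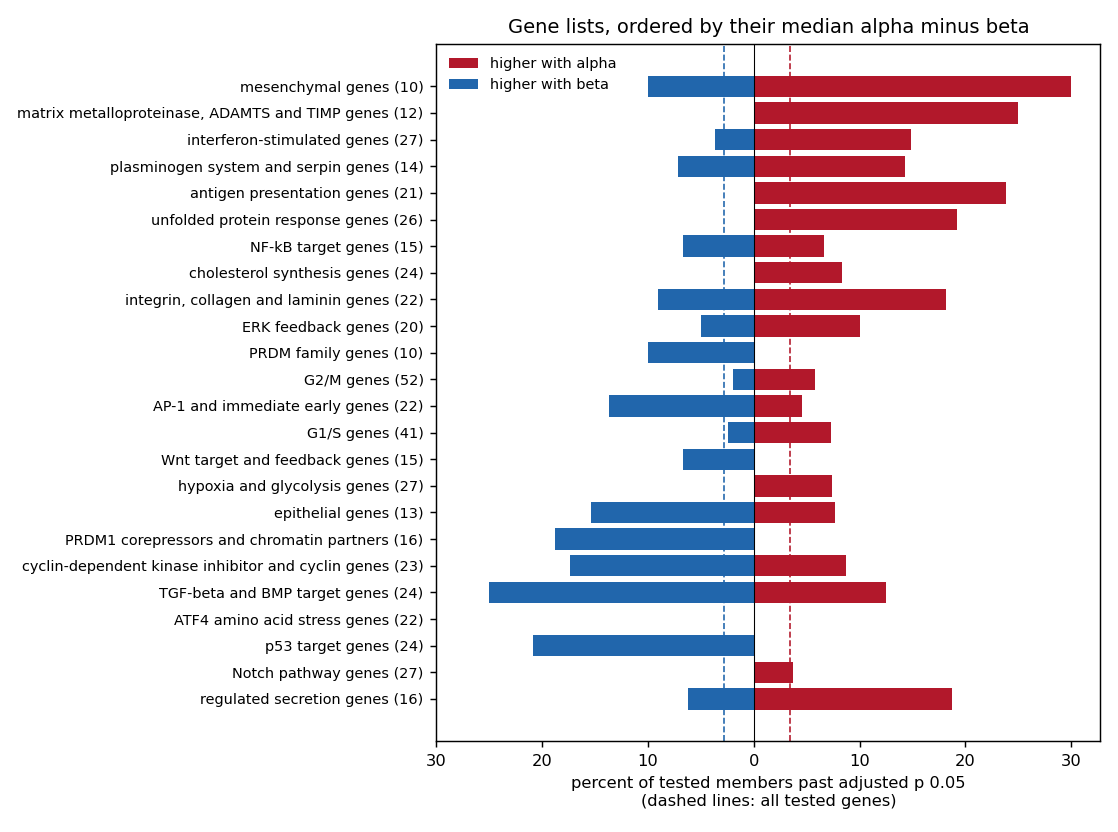
Percent of tested members higher with alpha (right) and higher with beta (left) at an adjusted p under 0.05 for the gene lists with 10 or more tested members (number in brackets), ordered by median alpha minus beta; dashed lines mark the 3.45% and 2.79% of all tested genes. The interferon, antigen presentation and unfolded protein response lists lean to alpha, and the p53 and corepressor lists to beta.

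Across genes, alpha minus beta had a Spearman correlation of 0.040 with transcript GC content, -0.016 with transcript length and -0.080 with level, over the 12094 tested genes (94.1%) matched to the annotation by symbol. These are correlations across genes of the same libraries, and genes are not independent replicates.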

How the data were processed

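RNA-seq counts of 12 RKO libraries in 6 groups of 2 were used. The authors deposited whole-number counts per gene and library. TopHat, Bowtie2 and Cufflinks with the build hg19 are named in the submitters' processing notes, without roles or versions, and the counting program is not given in the sources used here. Of the 26366 entries per file, 2 name no gene (no feature, 9.13% to 10.8% of all counts in a library, and ambiguous, 1.66% to 1.75%) and were left out. The authors' own comparison tables were not used, since none compares alpha with beta.

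Groups came from the sample titles. All 12 libraries were fitted together with edgeR 4.0.16 (R 4.3.3, limma 3.58.1): filterByExpr over the 6 groups, TMM scaling, robust quasi-likelihood F-test and Benjamini-Hochberg adjustment at 0.05 over 12858 genes. Fold changes are on the log2 scale with Wald standard errors, and intervals are 95%. CPM are counts per 1000000 gene counts of the library. With 19058967 to 55961821 gene counts a library, the common coefficient of variation between libraries of a group was 2.18%. The fit was checked on simulated counts. Alternatives were DESeq2 1.42.0, its size factors, no low-count filter, a floor of 5 CPM, a replicate block, only the groups compared, PRDM1 left out, a test beyond 1.5-fold and each library left out in turn. Gene order, GC content and PRDM1 forms came from GENCODE v29, promoters from RefSeq (GRCh38.p14), both by symbol. No coordinates of the files' build were used.

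Named genes were PRDM1, the 12 largest differences in each direction (at least 5 CPM, no overlap), the 6 most abundant at least 1.5-fold apart in each direction, up to 4 called members of each of 29 lists, and 8 genes changed at least 2-fold with both forms and alike between them. Members and lists were chosen with earlier results of these data known. Same-numbered alpha and beta libraries did not deviate together (correlation of deviations -0.044 over 10171 genes), so numbers were not taken to pair them. Some named genes are not reported here.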

Additional observations from a re-analysis of the deposited data

Results flagged for a closer look

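A set of 5 genes moved in opposite directions from GFP with the forms. Each passed against GFP with alpha and with beta, with opposite signs, passed between the forms at 1.5-fold or more and had at least 5 CPM in its highest group; the test between the forms is the test of that difference. ZNF569, a zinc finger gene of the chromosome 19 stretch from ZNF565 to ZNF573, had 56.3 and 63.6 CPM in GFP cells, 91.2 and 85.5 with alpha and 38.4 and 39.3 with beta, so that it rose by 0.57 with alpha, changed by -0.62 with beta and differed by 1.19 ± 0.055 (adjusted p = 1.26e-22, edgeR). ZNF519, a zinc finger gene outside chromosome 19, had 18.8 and 17.3 CPM in GFP cells, 28.6 and 27.7 with alpha and 14.7 and 14.2 with beta, a difference of 0.97 ± 0.081. SLCO1B3, an uptake transporter for organic anions, had 12.6 and 13.6 CPM in GFP cells, 15.3 and 15.97 with alpha and 9.18 and 9.35 with beta, a difference of 0.75 ± 0.10. ZNF227 and ZNF100, both in called stretches of chromosome 19, differed by 0.64 ± 0.064 and 0.62 ± 0.044. For all 5 genes the call between the forms held in each fit that left out 1 of the 4 libraries, and alpha, beta and GFP libraries did not overlap. The fall of ZNF100 with beta against GFP was small (-0.11 ± 0.045, adjusted p = 0.0353, edgeR). Its level was 81.4 and 80.6 CPM with beta, 88.6 and 86.6 with GFP and 80.3 and 79.97 in wild-type cells, so beta was not below wild type. For ZNF569, ZNF519, SLCO1B3 and ZNF227 both beta libraries lay below both wild-type libraries. Form and PRDM1 transcript dose cannot be told apart in these values.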

How the results depend on the processing

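The 802 differences between alpha and beta became 59 for changes beyond 1.5-fold (53 higher with alpha, 6 with beta, 9 of the chromosome 19 zinc finger genes) and 424 with the DESeq2 Wald test (273 and 151), of which 423 were among the 802. Leaving out 1 library gave 395 to 495 in all, 250 to 288 higher with alpha and 145 to 211 with beta; the total was 487 without alpha replicate 1, 443 without alpha replicate 2, 495 without beta replicate 1 and 395 without beta replicate 2, with fewer libraries in each fit. In those fits the lone library of a group is assumed to vary like the other groups. The GFP comparisons fell from 4824 to 360 with alpha and from 5261 to 353 with beta beyond 1.5-fold. The ratio of beta to alpha PRDM1 transcript was 2.41 to 2.45 under other scalings or without a library and 2.90 per coding base, an alternative chosen after seeing the data, as were the counts by list and of chromosome 19 zinc finger genes. Among the 8 genes chosen for lying near no difference, 6 changed sign: leaving out a library gave ranges of -0.11 to 0.0166 for FOXD1, -0.1427 to 0.0171 for COL13A1, -0.0532 to 0.1075 for LYPD6, -0.1444 to 0.0407 for MECOM, -0.0012 to 0.0959 for ID3 and -0.0938 to 0.001 for IVNS1ABP; the cause was not tested. With the replicate block 775 genes passed (432 higher with alpha, 343 with beta), 762 of them among the 802. Of the 92 named genes that passed, 49 passed in every fit that left out a library and 64 with DESeq2; the other settings kept the counts within 1.5 times. At the depth of these libraries 3 counts, a floor that was chosen and not measured, equal 0.124 to 0.157 CPM. Levels below it rest on fewer than 3 counts in a library and are uncertain.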
